A study of Homo sapiens with 24 samples.

Results

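CXCL10 (IP-10) is an interferon-induced chemokine that binds the G protein-coupled receptor CXCR3, and its effect on the renal cell carcinoma line 786-O was followed on 2 arrays, 1 after 12 h and 1 after 24 h. These are 2 of the 24 arrays of the series, chosen by their labels and not by any measured value. On each array RNA of CXCL10-treated 786-O cells was labeled with Cy5 and RNA of 786-O cells with no treatment with Cy3. The dyes were not swapped, and the labels give the untreated cells no time of their own. The dose and source of CXCL10 are not given in the sources used here, and the treatment protocol in the labels names only transfection reagents. A further 6 arrays of the same design, on the same slide, carried RNA of cells transfected with miR-143 or si-GOLM1 (PC3 and DU145 prostate cancer cells) or miR-27b (786-O and A498 renal cancer cells) in Cy5. They are used here only to show how far a probe moved when CXCL10 was not the treatment. 786-O is an established line that lacks functional VHL.

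CXCR3 signals through inhibitory G proteins, is phosphorylated by GRK kinases and is then bound by arrestins. The chemokine also binds syndecans and is trimmed by the protease DPP4. The atypical chemokine receptor ACKR3 was read beside CXCR3. In T cells this pathway drives migration, and in tumours CXCL10 is known as an angiostatic chemokine. Metallothioneins, which the 24 h array singled out, are small cysteine-rich proteins that bind zinc and copper. They lie in 1 cluster on chromosome 16, and the zinc sensor MTF1 induces them through metal response elements in their promoters.

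The values below are log2 ratios of CXCL10 over no treatment, with the error that the scanner software assigned to the spot. Each time had 1 array, so no difference has a replicate check, "higher" and "lower" were called by size at a log2 ratio of 1.0, and the number of arrays limits the precision. Of 50599 probes, 26158 had a channel well above background on both arrays, and these covered 14902 genes, each read from its brightest probe. A gene for which both channels of both arrays were well above background counts as fully detected. Between 54.2% and 56.7% of the spots of a channel were well above background, and 0 spots were saturated. In the untreated channel 10 of 13 measured renal carcinoma markers, among them PAX8, PAX2 and CDH6, were above their level on all 4 prostate arrays. CA9 was not well above background. Of 10 immune cell markers 4 were well above background in this channel (CD14, CD3D, ITGAM and PTPRC), and CD2, CD3E, MS4A1, FCGR3A and NKG7 were among those that were not. NKG7 was 1 of 5 members of this list with a channel well above background on both arrays. The summed signal of these 5 was 138 untreated and 133 treated at 12 h, and 168 and 202 at 24 h. Of 5 endothelial markers CDH5 and VWF were well above background in the untreated channel, and PECAM1, CLDN5 and TEK were not.

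Few transcripts differed strongly between CXCL10 and no treatment. At 12 h 58 genes (0.389%) were higher and 88 (0.591%) lower by at least 1.0. At 24 h 81 genes (0.544%) were higher and 99 (0.664%) lower. At a limit of 0.5 these were 367 (2.46%) and 266 (1.78%) at 12 h, and 514 (3.45%) and 407 (2.73%) at 24 h. Most of the calls were dim. Of the genes past 1.0, only 3 of 58 and 28 of 88 at 12 h, and 9 of 81 and 36 of 99 at 24 h, were fully detected. A ratio over a channel not well above background is only a bound, set by the lowest signal that was well above background in that channel. Of the 58 and 88 genes at 12 h, 54 and 57 had such a channel, and 13 and 38 of these were at least 2-fold apart by the bound. Of the 81 and 99 at 24 h, 69 and 50 had one, and 8 and 29 were at least 2-fold apart. Among 10538 fully detected genes with a mean log2 signal of at least 7, called bright here, 5 were past 1.0 at 12 h and 8 at 24 h. The log2 ratios of these bright genes had an SD of 0.136 at 12 h and 0.196 at 24 h, the 2 smallest of the 8 arrays, and 0.215 to 0.303 on the other 6. The genes were chosen by their signals on the 2 CXCL10 arrays only. Genes dim on the other 6 stayed in, so the SDs are not measured on equal terms. In bulk RNA, fewer cells that make a transcript and less of it per cell cannot be told apart.

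Limma tested each time with the spread that the 3 other treatments, each in a pair of cell lines, gave. At an adjusted p of 0.05 it called 1 of 26158 probes (0.00382%) at 12 h, 1 probe (0.00382%) at 24 h, 4 probes (0.0153%) for the mean of both times and 0 probes (0%) for 24 h minus 12 h. The unadjusted p lay under 0.05 for 1382, 2646, 2409 and 1489 probes. The probe at 12 h was that of the lincRNA XLOC_009323, whose treated signal was not well above background, so that it was at least 2.57-fold lower at 12 h and 2.37-fold at 24 h (limma adjusted p = 0.00745 and 0.0965 from the software's log2 ratios of -3.52 and -1.56). The probe at 24 h was 1 of the probes of the aminopeptidase gene NPEPL1, whose untreated signal was not well above background, so that it was at least 1.92-fold higher (limma adjusted p = 0.0183 from the software's log2 ratio of 2.94). It was 0.16 at 12 h, and the brightest NPEPL1 probe had 0.01 and -0.03. On the 6 other arrays the software listed both called probes at exactly 0, as it does for dim spots, but for -0.02 for NPEPL1 on 1 array. The 4 probes for the mean were these 2 and those of LINC00189 and of XLOC_010715, whose untreated signal was not well above background (at least 1.04-fold higher at 24 h and no bound above 1 at 12 h), and the latter pair went the same way on all 6 other arrays. When any of the 3 pairs was left out of the spread, limma called 0 probes in each of the 4 tests, so the genes below are described by size. With normexp background correction and loess in place of the software's values, it called 21 probes at 12 h, 50 at 24 h, 134 for the mean and 22 for 24 h minus 12 h.

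**Figure D1:**
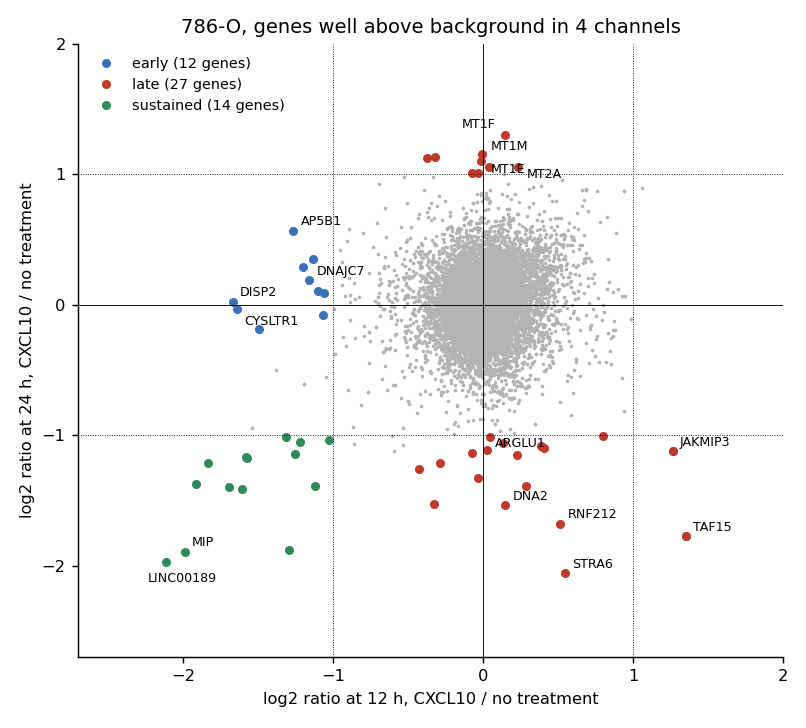
Log2 ratio at 24 h against 12 h (both axes CXCL10 over no treatment in 786-O) for 14283 fully detected genes, 1 array per time, with dotted lines at 1.0 and -1.0. Early, late and sustained genes are coloured. TAF15 and JAKMIP3 are both early higher and late lower and are drawn as late. The metallothioneins MT1F, MT1M, MT1E and MT2A stand at the top, near 0 at 12 h.

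A gene was called early where it was past 1.0 at 12 h and short of 0.5 in that direction at 24 h, late for the reverse, and sustained where it was past 1.0 the same way at both times. There were 31 early higher genes (0.208%) and 28 early lower (0.188%), 62 late higher (0.416%) and 43 late lower (0.289%), and 13 sustained higher (0.0872%) and 50 sustained lower (0.336%). A further 20 (0.134%) and 16 (0.107%) were past 1.0 at one time and between 0.5 and 1.0 the same way at the other. Only 8 genes (0.0537%) were past 1.0 in opposite directions. These classes were then read against the 6 other arrays. Of the 50 sustained lower genes, 35 had a median at or below -1.0 on the other arrays too, and 46 were at or below -0.5 there. Only 7 of the 50 were lower at both times than on every other array. At 24 h, 36 of the 43 late lower genes lay below every other array, and 54 of the 62 late higher genes lay above every other array. Late genes were chosen for a large value at 24 h and read at that time only, while sustained genes were read at both times. The counts of these classes therefore cannot be set side by side. The share over all genes tested is not given here, and whether any count exceeds chance was not tested.

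A small set of genes kept its place past 1.0 in 2 other settings, normexp or no background correction, each with loess in place of the software's dye normalization. At 12 h this set held TAF15, which was higher, and DISP2 and DNAJC7, which were lower. At 24 h it held MT1E, MT1F, MT1M and MT2A, which were higher, and TAF15, APP, DNA2 and DEFB110, which were lower. All 4 genes of this set that were higher at 24 h were metallothioneins.

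Of 10 listed metallothionein genes 4 were higher at 24 h and 0 at 12 h. MT1F had the highest value, with 0.15 ± 0.20 at 12 h and 1.30 ± 0.24 at 24 h, and between -0.02 and 0.33 on the 6 other arrays. MT1M had -0.01 ± 0.20 and 1.16 ± 0.23, and MT1E had -0.01 ± 0.20 and 1.11 ± 0.23. MT2A, the main metallothionein of most human cells, had 0.23 ± 0.21 and 1.05 ± 0.23, and it reached 0.51 on the other arrays. Below 1.0 at 24 h were MT1H (0.85 ± 0.22), MT1B (0.84 ± 0.22), MT1X (0.82 ± 0.22) and MT1A (0.78 ± 0.22). At 12 h these 4 genes lay between -0.04 and 0.04. MT3, the form known from brain, had 0.11 ± 0.20 and 0.32 ± 0.21. MT1G had 0.12 ± 0.32 and 0.41 ± 0.52, was not fully detected, was at least 1.04-fold higher at 24 h by the bound, and ranged from -1.44 to above its 24 h value on the other arrays. MT1L, annotated as a pseudogene in this cluster and chosen after its values were seen, had 0.02 ± 0.20 and 0.81 ± 0.22.

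MT2A had the highest signals of the family, 86688 untreated and 101744 treated at 12 h, and 72167 and 149908 at 24 h. The signals of MT1F were 1089 and 1205 at 12 h, and 1066 and 2631 at 24 h. In both genes the treated signal at 24 h stood above the other 3. In MT1B and MT1X the untreated signal at 24 h stood below the other 3 instead. Those of MT1B were 33592 and 33291 at 12 h, and 18585 and 33277 at 24 h. Those of MT1X were 23528 and 23683, and 13307 and 23451. These signals were not normalized between the arrays. Of the 10 listed metallothionein genes, 4 were at or above 1.0 and 8 at or above 0.5 at 24 h, and 0 were past 0.5 at 12 h. Their median was 0.02 at 12 h and 0.85 at 24 h, beside 0.01 and 0.02 over all genes tested. On the 6 other arrays the median of the list lay between -0.06 and 0.18. Among the 10538 bright genes, the 4 highest at 24 h were MT1F, MT1M, MT1E and MT2A, and 9 of the 12 highest were metallothionein genes with MT1L counted. All 10 fully detected metallothionein genes, MT1L included, were higher at 24 h than on every other array. The share of all fully detected genes that were so is not given here, so this count has no background. Second probes had 0.92 at 24 h for MT1E and for MT1X. Limma called none of these genes for 24 h minus 12 h (adjusted p = 0.378 for MT1F and 0.516 to 0.802 for the other 7 listed genes at 0.78 or above).

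**Figure D2:**
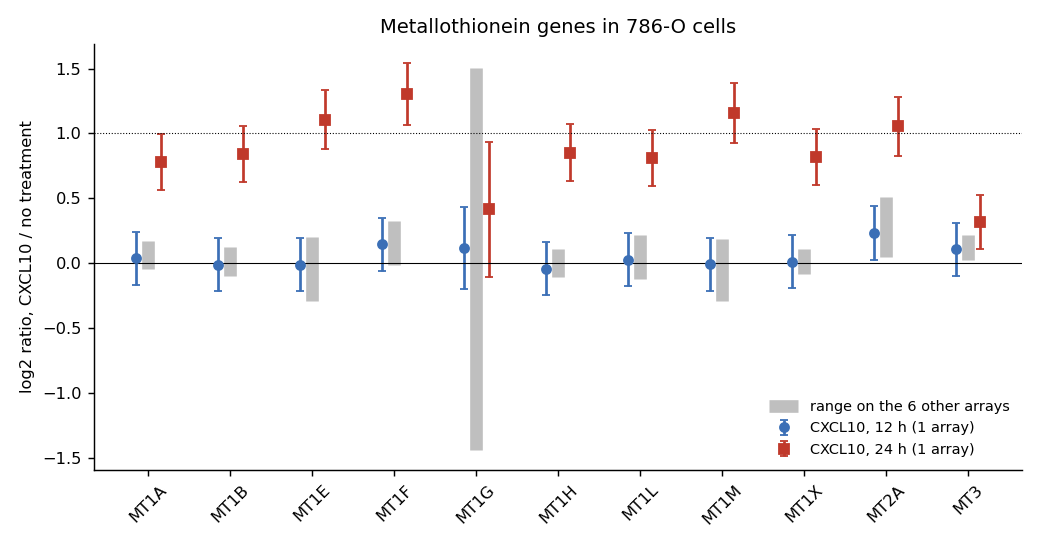
Log2 ratio of CXCL10 over no treatment (y axis) for 11 metallothionein genes at 12 h (circles) and 24 h (squares), 1 array each, with the scanner software's error as bars. Grey bars span the 6 other arrays of the design, and the dotted line marks 1.0. All genes but MT1G and MT3 lie at 0.78 or above at 24 h.

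The genes are close paralogs, so a probe can pick up more than its own gene. The array's annotation places the probe of MT1X at chr16:56717082-56717141 (hg19), that of MT1H across an intron between 56704448 and 56704833 and that of MT1A across an intron between 56673205 and 56673808. These 3 probes have an open reading frame rich in cysteine codons, and they are printed because they show both the feature that defines the family and the sequence its members share. Cysteine codons are in capitals.
MT1X: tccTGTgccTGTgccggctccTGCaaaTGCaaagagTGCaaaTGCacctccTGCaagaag
MT1H: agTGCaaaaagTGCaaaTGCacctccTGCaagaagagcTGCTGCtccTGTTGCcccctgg
MT1A: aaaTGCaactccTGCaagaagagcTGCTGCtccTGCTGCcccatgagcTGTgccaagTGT
The probes hold 7, 8 and 8 cysteine codons. The MT1A and MT1H probes share a run of 27 bases and the MT1H and MT1X probes one of 26. Of the 53 pairs of probes of different genes these 2 pairs shared at least 20 bases, and the median was 6. The probes of MT1F, MT1M, MT1E and MT2A, the genes past 1.0, shared at most 17 bases with a probe of another member. Probes were compared with each other and not with the transcripts of the other members. Whether a probe reads another member was therefore not tested.

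The promoters are printed because members of the cluster moved together. Of the listed metallothioneins RefSeq's promoter table held MT1B, MT1H, MT1X and MT2A. Shown are the 250 bases before the start of MT2A at chr16:56608334-56608583 and of MT1X at chr16:56682220-56682469 (GRCh38.p14, forward strand). Capitals mark the core of the metal response element, searched as TGCACNC or TGCGCNC on both strands, where matches may overlap.
MT2A: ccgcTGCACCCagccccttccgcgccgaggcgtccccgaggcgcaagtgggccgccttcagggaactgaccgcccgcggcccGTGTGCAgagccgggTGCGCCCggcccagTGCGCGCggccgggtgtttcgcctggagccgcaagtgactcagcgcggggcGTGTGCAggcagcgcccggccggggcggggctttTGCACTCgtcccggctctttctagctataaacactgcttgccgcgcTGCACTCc
MT1X: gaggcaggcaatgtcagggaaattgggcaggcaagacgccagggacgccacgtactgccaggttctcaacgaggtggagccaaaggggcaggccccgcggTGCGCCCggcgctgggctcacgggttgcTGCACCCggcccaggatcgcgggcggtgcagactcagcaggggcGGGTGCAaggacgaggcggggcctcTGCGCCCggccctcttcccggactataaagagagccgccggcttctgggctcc
The MT2A stretch held 7 matches, that of MT1H 8, that of MT1X 4 and that of MT1B 3. At least 1 match was found in 24.8% of 35116 promoters of this length, at least 4 in 0.37% and at least 7 in 0.0313%. A match is a run of letters and not a site shown to be bound.

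The 2 channels were then read apart to see which of them moved between the 12 h and the 24 h array. Before this, the mean log2 signal of Cy3 and Cy5 was quantile normalized across the arrays, with each log ratio kept. For 8 of 10 metallothionein genes the untreated channel moved more than the treated one. Between the arrays the Cy3 signal of 9 of the 10 fully detected genes was lower at 24 h, with a median of -0.85 and a range of -1.11 to 0.22 on the log2 scale. Their Cy5 signal had a median of 0.04 and a range of -0.26 to 0.87, and it was higher in 5 and lower in 5. Of all 14902 genes tested, 7346 were lower in Cy3 and 7259 in Cy5. MT1X, MT1B, MT1H, MT1L and MT1A were lower by 0.88 to 1.11 in Cy3 and by 0.14 to 0.26 in Cy5. MT1F stood apart, with -0.28 in Cy3 and 0.87 in Cy5. MT1M had -0.82 in Cy3 and 0.34 in Cy5, and MT2A had -0.61 and 0.21. The probes of MT1E split the gap differently: the brightest had -0.80 in Cy3 and 0.32 in Cy5, and the second had -0.06 and 0.86. The second MT1X probe had -1.46 and -0.54. These changes include the difference between the 2 arrays, which cannot be told apart from the time in culture.

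**Figure D3:**
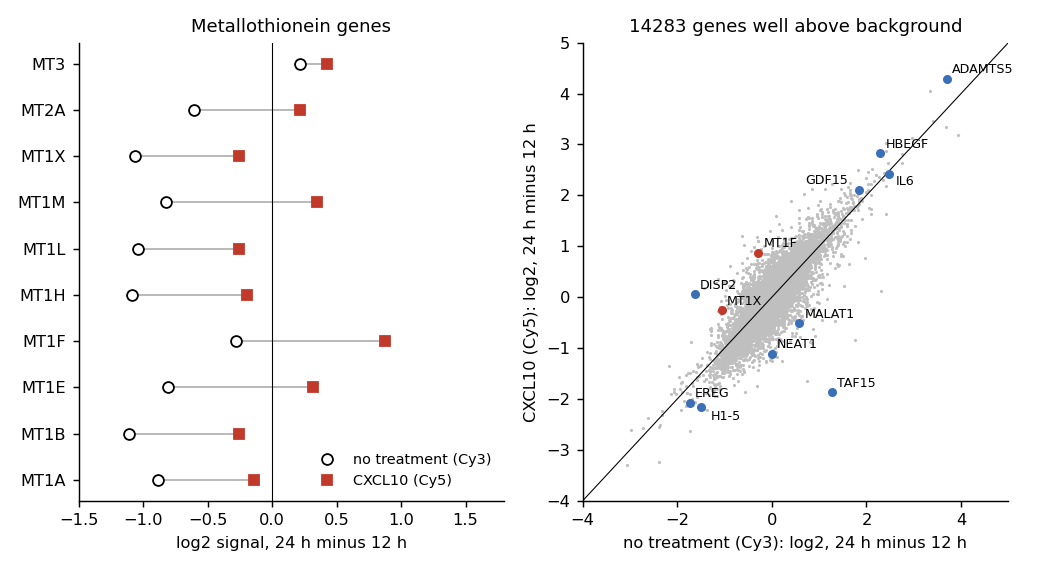
Left, log2 signal at 24 h minus 12 h for 10 metallothionein genes in the untreated (Cy3, open circles) and the CXCL10 channel (Cy5, squares). The mean log2 signal of both channels was quantile normalized. Right, the same change in Cy5 against Cy3 for 14283 genes, with the line of equal change. Metallothioneins lie above that line, and TAF15, NEAT1 and MALAT1 lie below it.

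Genes that respond to the same metal sensor or to oxidative stress were read beside them. SLC30A1, the zinc exporter that MTF1 also induces, was chosen after its values were seen. It had -0.27 ± 0.21 at 12 h and 0.43 ± 0.21 at 24 h, outside the -0.34 to 0.16 of the other arrays only at 24 h. Between the arrays SLC30A1 was higher by 0.85 in Cy3 and by 1.55 in Cy5. The metallothioneins had medians of -0.85 and 0.04. The promoter stretch of SLC30A1 held 1 match to the metal response element core. HMOX1, which encodes the haem-degrading enzyme heme oxygenase-1, had -0.24 ± 0.21 and 0.58 ± 0.21, within the range of -1.15 to 0.60 of the other arrays. The 15 measured NRF2 targets as a list had medians of 0.03 and 0.01, and 1 of them, HMOX1, was past 0.5.

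The CXCR3 axis itself showed small values. Of its 18 listed members 12 were measured, their log2 ratios lay between -0.27 and 0.30, and 0 were past 0.5 at either time. The receptor CXCR3 had 0.04 ± 0.22 at 12 h and 0.26 ± 0.21 at 24 h on its brighter probe. Its second probe had a CXCL10-channel signal of 13.3 at 12 h and an untreated signal not well above background, a ratio of at least 1.39-fold (1.56-fold at 24 h), and it reached 1.87 on the log2 scale on the other arrays. ACKR3 had 0.22 ± 0.21 and -0.27 ± 0.21. Of the coreceptors and the protease, SDC1 had -0.13 and 0.01, SDC4 had -0.12 and -0.13, and DPP4 had 0.00 and -0.13. GNAI3 was read on 2 probes, and the second had 0.04 and 0.23. The G protein subunits GNAI1, GNAI2 and GNAI3 lay between -0.08 and 0.30, the arrestins ARRB1 and ARRB2 between 0.08 and 0.14, and the kinases GRK2 and GRK3 between -0.23 and 0.27. The errors of these values were 0.20 to 0.31.

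The ligands of the receptor were dim. CXCL9, CXCL11, CXCL13, PF4 and PF4V1 were not well above background on both arrays. The probe of CXCL10 at chr4:76943520-76943579 (hg19) had a signal of 252 in the untreated and 19.9 in the treated channel at 12 h, a log2 ratio of -3.66 ± 0.40. At 24 h both channels of this probe, 8.56 and 10.1, were not well above background. A second CXCL10 probe was not well above background in any channel at either time, and on the other arrays the first ranged from -2.09 to 1.46. The 12 h value therefore rests on 1 spot of 1 probe.

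The pathways that chemokines and interferons are known to switch on showed no member past 1.0. Of 41 measured interferon-stimulated genes, 0 were past 0.5 at 12 h and 1 at 24 h, the membrane protein gene IFITM1 (0.17 ± 0.22 and 0.69 ± 0.22), whose second probe had -0.51 and 0.66. The list's median was 0.00 at 12 h and 0.10 at 24 h. OASL had 0.02 and 0.49, and IFI6 had -0.10 and 0.45. NF-kB targets had medians of -0.02 and -0.07, and 1 of 24 was past 0.5, NFKBIZ (0.12 ± 0.20 and -0.65 ± 0.21), which encodes an atypical I-kB protein. TNFAIP3, the A20 feedback inhibitor, had 0.33 ± 0.22 and -0.45 ± 0.21. Other chemokines and receptors, of which 16 of 39 were measured, had medians of 0.07 and -0.09. CXCL12 (0.78 ± 0.26), CCL26 (0.61 ± 0.26) and CCL5 (0.55 ± 0.30) were past 0.5 at 24 h, with signals of at most 47.3, and a second CXCL12 probe had 0.17.

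Immediate early genes, ERK feedback genes and growth or stress programmes lay as close to 0. The 26 immediate early and AP-1 genes had medians of -0.01 and -0.04, with EGR2 at 0.67 ± 0.23 and 0.35 ± 0.26. The 15 ERK feedback genes had medians of -0.06 and 0.04, with the inhibitor SPRED2 at 0.52 ± 0.22 and 0.53 ± 0.21. SPRY4, another inhibitor, had -0.86 ± 0.38 at 24 h and an untreated signal not well above background at 12 h. HIF targets (34), which 786-O expresses without VHL, had medians of 0.02 and 0.07. SLC2A3 (GLUT3) had 0.66 ± 0.33 and 0.76 ± 0.25 and VEGFA had -0.23 ± 0.21 and -0.49 ± 0.21. For VEGFA, the 24 h value lay below the -0.14 to 0.12 of the other arrays, but a second probe had 0.18 and 0.01. p53 targets (25) had medians of -0.03 and -0.07. BAX, which promotes apoptosis, had -0.66 ± 0.21 and 0.29 ± 0.21 and ranged from -1.59 to 0.26 on the other arrays, and its second probe had -0.21 and 0.13. Matrix, invasion and EMT genes (35) had medians of 0.01 and -0.02. TIMP4, a metalloproteinase inhibitor, had 0.90 ± 0.32 and 0.12 ± 0.40, and 0.65 was its highest value on the other arrays. MMP14, a membrane-bound matrix protease, had -0.69 ± 0.21 and -0.09 ± 0.20, and vimentin (VIM) had 0.51 ± 0.21 and -0.32 ± 0.21. Angiogenesis genes (13) had medians of 0.04 and 0.00. Their only member past 1.0 was TEK, whose untreated signal was not well above background, so its ratio was at least 1.27-fold at 12 h and 1.51-fold at 24 h.

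Over all 30 lists together, 565 of 642 genes were measured. At 12 h 1 of them (0.177%) was higher and 0 lower, and at 24 h 6 (1.06%) were higher and 0 lower. The 6 were MT1E, MT1F, MT1M, MT2A, TEK and the prostate marker TMPRSS2, whose untreated signal was not well above background at 24 h, a ratio of at least 1.87-fold. Reference genes (16) had medians of 0.03 and 0.00.

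**Figure D4:**
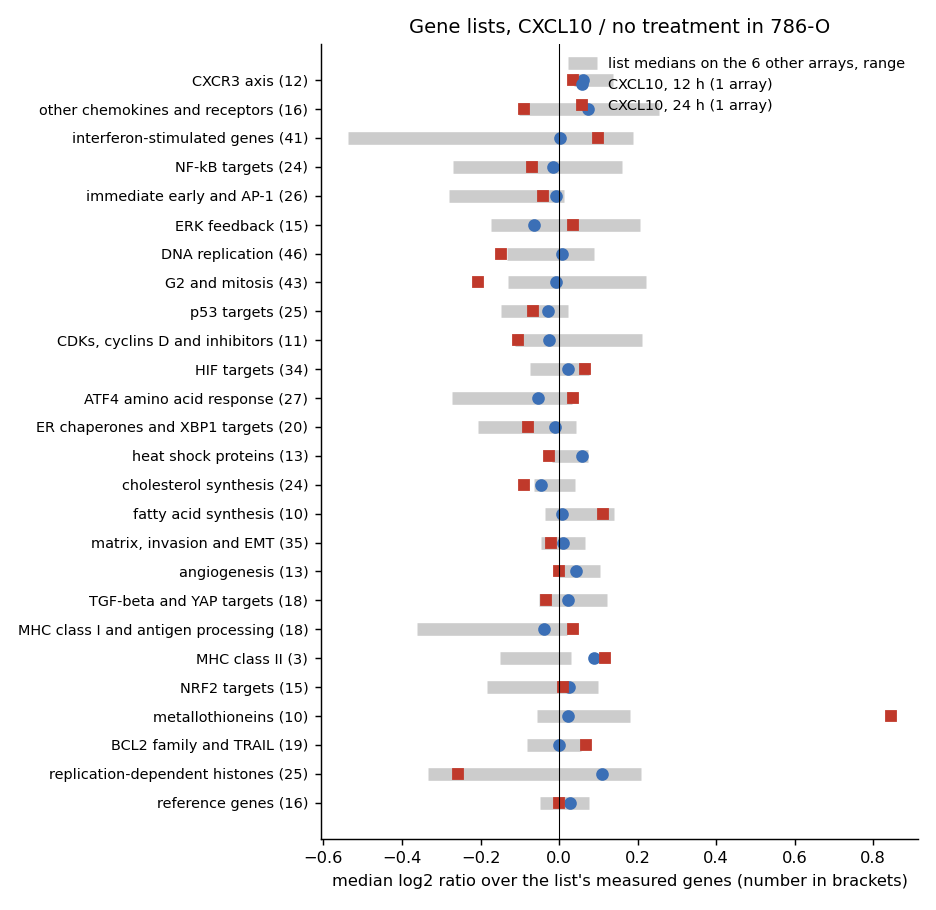
Median log2 ratio of CXCL10 over no treatment (x axis) for 26 gene lists at 12 h (circles) and 24 h (squares), 1 array each. Grey bars span the medians of the same list on the 6 other arrays. Metallothioneins reach 0.85 at 24 h, and G2 and mitosis genes lie at -0.21.

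Most cell cycle genes lay slightly below 0 at 24 h, and 0 of them reached -1.0 on the brightest probe. Of 43 G2 and mitosis genes, 40 were below 0 at 24 h (93.0%, beside 46.2% of all genes tested) and 24 at 12 h. Their median was -0.01 at 12 h and -0.21 at 24 h, and on the other arrays it lay between -0.13 and 0.22. Only 2 were past -0.5, the kinetochore gene NUF2 (-0.02 ± 0.20 and -0.55 ± 0.21) and CDK1, the mitotic kinase (-0.13 ± 0.20 and -0.54 ± 0.21), whose second probe had 0.05 and -1.46. BUB1, a spindle checkpoint kinase, had -0.04 ± 0.20 and -0.47 ± 0.21. Of 46 DNA replication genes 37 were below 0 at 24 h, with a median of 0.01 at 12 h and -0.15 at 24 h. DBF4, the activator of the CDC7 kinase, had 0.04 ± 0.20 and -0.67 ± 0.21, but a second probe had 0.40 and 0.23. The licensing factor CDC6 had -0.01 ± 0.23 and 0.53 ± 0.23. The 17 helicase and origin genes had a median of -0.22 at 24 h, the 19 synthesis and nucleotide genes -0.13 and the 10 G1/S and chromatin genes -0.04. The 25 replication-dependent histone genes had a median of 0.11 at 12 h and -0.26 at 24 h, within the -0.33 to 0.21 of the other arrays. H1-5 had -0.16 ± 0.20 and -0.83 ± 0.22, H2AC16 had 0.01 ± 0.20 and -0.76 ± 0.22, and H4C5 had 0.28 ± 0.21 and -0.58 ± 0.21. Histone genes share sequence, so their probes may read more than 1 member.

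The same genes had lower signals on the 24 h array in the untreated channel too. Between the arrays, G2 and mitosis genes had a median change of -0.87 in Cy3 and -1.08 in Cy5, and all 43 were lower in both channels. Over all 14902 genes tested the medians were 0.01 and 0.02, and 7346 were lower in Cy3 and 7259 in Cy5. DNA replication genes had -0.69 and -0.86, and histone genes -0.86 and -1.17.

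More genes changed by at least 1.0 between the 2 arrays in both channels than differed by at least 1.0 between the channels. Of 14283 fully detected genes, 298 were higher by at least 1.0 at 24 h in both channels and 206 lower in both. The log2 ratio between the channels was past 1.0 in size for 31 of these genes at 12 h and 45 at 24 h. Only 1 gene, TAF15, moved past 1.0 in opposite directions, which is a stricter limit. Higher in both were the cytokine and chemokine genes IL6, by 2.48 in Cy3 and 2.42 in Cy5, CCL2 by 2.26 and 2.36, CXCL8 by 2.10 and 1.73, and TNF by 1.46 and 1.38. Of 16 measured chemokines and receptors 5 were higher in both (CXCL1, CXCL2, CXCL3, CXCL8 and CCL2), and of 24 NF-kB targets 4 (ICAM1, IL6, TNF and PTX3). Single genes outside these lists' counts were chosen after their values were seen. The growth factor HBEGF had 2.29 and 2.83, GDF15 had 1.84 and 2.11, the cell cycle inhibitor CDKN1C had 2.13 and 2.51, and the protease ADAMTS5 had 3.70 and 4.29. Lower in both were 10 of 43 G2 and mitosis genes, 8 of 25 histone genes and the EGFR ligand EREG (-1.74 and -2.07). The CXCL10 ratios of some of these genes were small at both times: IL6 had -0.06 and -0.12, CCL2 -0.14 and -0.04, and CXCL8 0.14 and -0.23. Those of others were larger at 24 h. H1-5 had -0.16 and -0.83, H2AC16 0.01 and -0.76, NUF2 -0.02 and -0.55, and CDKN1C 0.13 and 0.52. The array and the time in culture cannot be told apart here.

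The long nuclear RNA NEAT1, a scaffold of paraspeckles, lay above 0 at 12 h and below 0 at 24 h on every probe. It was chosen after its values were seen. Its 6 probes, all on chromosome 11 between 65192168 and 65206836 of hg19, had log2 ratios of 0.05 to 0.60 at 12 h, with a median of 0.29. At 24 h they had -1.49 to -0.50, with a median of -0.87, and each lay below its value on every other array. At 12 h the probes at 0.05, 0.22, 0.31 and 0.32 lay within the range of the other arrays. Those at 0.27 and 0.60 lay above it. In Cy5 all 6 probes were lower at 24 h, with a range of -1.23 to -0.17 and a median of -0.79. In Cy3 the change ranged from -0.02 to 1.06. MALAT1, its neighbour, had 8 probes that differed more among themselves. At 24 h 7 of them were below 0, with a median of -0.32 and a range of -0.97 to 0.16. At 12 h 5 were above 0, and the range was -1.35 to 0.30. The probe at -1.35 ranged from -2.04 to 1.07 on the other arrays. Limma adjusted p for 24 h minus 12 h was 0.52 for the brightest probe of each gene.

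**Figure D5:**
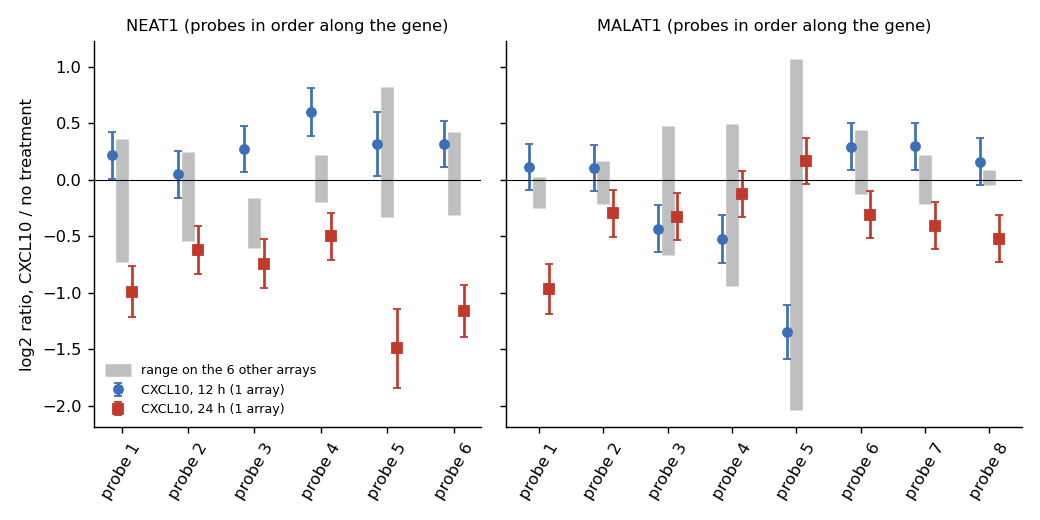
Log2 ratio of CXCL10 over no treatment (y axis) for the 6 probes of NEAT1 and the 8 probes of MALAT1, in order along each gene, at 12 h (circles) and 24 h (squares), 1 array each with the software's error. Grey bars span the 6 other arrays. All NEAT1 probes lie above 0 at 12 h and at -0.50 or below at 24 h.

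Other bright genes that lay low at 24 h were also chosen after their values were seen. The splicing regulator ARGLU1 had 0.03 ± 0.20 and -1.12 ± 0.23, with -0.78 at 24 h on a second probe. TAF3, a TFIID subunit, had 0.18 ± 0.20 and -0.96 ± 0.22. PAPOLA, the poly(A) polymerase, had 0.06 ± 0.20 and -0.88 ± 0.22. The chromatin proteins HMGB1 (0.01 ± 0.20 and -0.77 ± 0.22) and SMC4 (-0.02 ± 0.20 and -0.75 ± 0.22) did not reach -1.0, and a second SMC4 probe had -0.42 at 24 h. All 5 genes lay below the other arrays' range at 24 h. A few bright genes, chosen in the same way, lay low at 12 h and high at 24 h. The dynein heavy chain DYNC1H1 had -0.36 ± 0.21 and 0.75 ± 0.22, the ubiquitin ligase HERC1 had -0.44 ± 0.21 and 0.67 ± 0.21, and the scaffold AHNAK had -0.56 ± 0.21 and 0.43 ± 0.21. At both times these 3 genes lay outside the range of the other arrays, below it at 12 h and above it at 24 h. The 3 AHNAK probes ranged from -0.56 to 0.06 at 12 h and from 0.07 to 0.43 at 24 h, and the values given are those farthest from 0. SLC5A3, the myo-inositol transporter, had -0.02 ± 0.20 and 0.85 ± 0.22. The base composition of the probes moved with the 24 h ratio to a lesser degree. Probes with up to 20 G or C bases of 60 had a median of -0.03 at 24 h and those with 33 or more 0.11, against 0.05 and -0.02 at 12 h. Its part in the values of single genes was not tested. After the median of probes with the same number of G and C bases was subtracted, metallothioneins had a median of 0.74 at 24 h and G2 and mitosis genes -0.22.

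Early genes were few and mostly stood on dim probes. TAF15, which encodes an RNA-binding protein of the FET family, was the only bright early higher gene. Its untreated signal was 1549 and its treated signal 3953 at 12 h, a log2 ratio of 1.35 ± 0.24. At 24 h these were 4382 and 1279, a log2 ratio of -1.78 ± 0.26. On the other arrays it ranged from -1.30 to 0.31. The other fully detected early higher gene, JAKMIP3, had signals of 16.6 to 39.9 and log2 ratios of 1.26 ± 0.29 and -1.13 ± 0.37. Among early lower genes, DISP2, a relative of the Hedgehog release factor DISP1, had signals of 291 untreated and 91.5 treated at 12 h (-1.67 ± 0.26), and 114 and 116 at 24 h (0.02 ± 0.21). The untreated signal at 12 h stood above the other 3. DNAJC7, a co-chaperone outside the naming rule, had -1.16 ± 0.23 and 0.19 ± 0.20 and reached -1.40 on another array. CYSLTR1, a leukotriene receptor, had -1.64 ± 0.34 and -0.03 ± 0.33. The lectin gene CLEC4A had -1.49 ± 0.35 and -0.18 ± 0.41, AP5B1, an adaptor subunit, had -1.27 ± 0.26 and 0.57 ± 0.23, and CCDC116 had -1.20 ± 0.33 and 0.29 ± 0.35. The signals of these 4 genes were between 9.81 and 67.7.

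Late lower genes other than those above were DNA2, the nuclease and helicase of DNA replication, with 0.15 ± 0.21 and -1.54 ± 0.25, and STRA6, the retinol-binding protein receptor, with 0.54 ± 0.35 and -2.06 ± 0.34. The meiotic gene RNF212 had 0.51 ± 0.25 and -1.68 ± 0.26, but a second probe had 0.72 and 0.29. The zinc finger gene RBAK had -0.33 ± 0.40 and -1.53 ± 0.28, and its second probe had -0.05 and 0.25. APP, the amyloid precursor gene, had 0.80 ± 0.22 and -1.01 ± 0.22 on its brightest probe, a second probe had -0.30 and -0.08, and the first ranged from -1.81 to 0.87 on the other arrays. The defensin gene DEFB110 was classed as sustained lower and not as late, from the software's log2 ratios of -2.71 and -3.21. Its treated signal was not well above background, so that it was at least 1.63-fold lower at 12 h and 7.78-fold at 24 h. Late higher genes next to the metallothioneins were LOC100507412 (-0.32 ± 0.26 and 1.14 ± 0.32) and the small nucleolar RNA SNORA19 (-0.37 ± 0.31 and 1.13 ± 0.27), with signals of 13.4 to 62.7. LOC100507412 reached 1.21 on another array.

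The fully detected sustained genes, 14 in number, were all lower, and 12 of these were not lower at both times than on every other array. LINC00189 had -2.11 ± 0.34 and -1.97 ± 0.34, and -2.77 to -2.08 on the other arrays. MIP, a lens aquaporin, had -1.99 ± 0.30 and -1.89 ± 0.30, and -2.51 to -0.97 on the others. NRG4, a ligand of ERBB4, had -1.61 ± 0.32 and -1.41 ± 0.33 against a lowest value of -1.59 elsewhere. PRRT4 had -1.69 ± 0.33 and -1.40 ± 0.34 against -1.55, and KLHL35 had -1.91 ± 0.30 and -1.37 ± 0.29 against -1.60. For LINC00189 and MIP, the log2 ratio minus the probe's median on the other arrays was 0.37 and 0.01 at 12 h, and 0.51 and 0.10 at 24 h. Of the 13 sustained higher genes 0 were fully detected.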

How the data were processed

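RNA of CXCL10-treated and untreated 786-O cells was compared on 2 Agilent 2-colour arrays, 1 per time. Spots had been read with Agilent Feature Extraction, version 10.7.3.1 in the submitters' processing notes. The intensity values the authors deposited had been corrected for background and dye by that software, and the deposited log ratio, Cy5 over Cy3, was in log10 units. The deposited log10 values were multiplied to the log2 scale. The software's error describes 1 array and not the difference between cultures, and its p-value was not used. The authors' series matrix was deposited with values equal to these log ratios (largest difference 0 over 62976 features). Control spots and flagged spots (447 and 476) were left out and spots of a probe averaged. The software marks each spot that is well above background, and a probe had to reach a share of 0.5 of its spots. Of 50599 probes, 31412 (62.1%) were matched to RefSeq genes of GRCh38.p14, used for names and promoters. Probe coordinates are those of the array's annotation on hg19. Tested probes without a match, 5434, stayed out of the gene counts.

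Limma 3.58.1 in R 4.3.3 fitted 1 coefficient per treatment and CXCL10 time over the 8 arrays of the design, with Benjamini-Hochberg adjustment over 26158 probes. Other treatments were taken as replicated by their pair of cell lines, so the p-values borrow the spread between cell lines. The smallest spreads include dim spots to which the software gave a log ratio of exactly 0. Channels were quantile normalized (Aquantile). The rest ran in Python 3.11.15. The calls and the fit were tested on simulated data. Named genes were those fully detected and matched to RefSeq: up to 5 sustained, early and late genes per direction and 3 that moved apart, every measured CXCR3-axis member, and the 3 members of other described lists with the largest value. Genes that were named otherwise are marked in the text, apart from list members past a limit and genes past 1.0 under all 3 settings of background and dye correction. The members, the gene lists and the alternatives were chosen with earlier results of these data known. Alternatives were the background correction with loess, centring, filter, choice of probe, the limit, subtraction of the other arrays, source of the values and, added after seeing the data, a correction for base composition and a limma test against the other treatments. Some members of the gene lists are not reported here.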

Additional observations from a re-analysis of the deposited data

Results flagged for a closer look

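Among the genes named by the rule or in the text, 8 lay at or past 0.5 in opposite directions at 12 h and 24 h. From 12 h to 24 h the log2 ratio of TAF15 differed by -3.13 (1.35 to -1.78), that of STRA6 by -2.6 (0.54 to -2.06), that of JAKMIP3 by -2.39 (1.26 to -1.13), that of RNF212 by -2.19 (0.51 to -1.68) that of AP5B1 by 1.83 (-1.27 to 0.57), that of APP by -1.81 (0.80 to -1.01), that of ALDH1L2, a folate enzyme gene, by -1.15 (0.58 to -0.57) and that of NEAT1 by -1.1 (0.60 to -0.50). Limma, with the spread of the other treatments, gave these differences adjusted p-values of 0.726, 0.287, 0.178, 0.94, 0.552, 0.947, 0.688 and 0.521, so none passed the limit of 0.05. With 1 array per time no replicate stands behind either value. ALDH1L2 was not well above background in every channel. NEAT1 and APP were chosen after their values were seen, and a second APP probe had -0.30 and -0.08. TAF15 ranged from -1.30 to 0.31 on the other arrays, and RNF212 from 0.06 to 2.22.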

How the results depend on the processing

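The counts by size moved with the background and dye correction, the filter on dim probes and the limit. Both background alternatives also put loess in place of the software's dye normalization, so these choices cannot be told apart. The counts are given in the order higher and lower at 12 h, higher and lower at 24 h, sustained higher and lower, early higher and lower, late higher and lower, graded higher and lower (past 1.0 at one time, 0.5 to 1.0 at the other), and moved apart. As reported they were 58, 88, 81, 99, 13, 50, 31, 28, 62, 43, 20, 16 and 8. With normexp and loess they were 1, 2, 4, 4, 0, 0, 1, 2, 4, 4, 0, 0 and 1, and with no background correction 1, 5, 4, 7, 0, 1, 1, 3, 4, 6, 0, 1 and 1. With only fully detected probes they were 3, 28, 9, 36, 0, 14, 2, 10, 9, 18, 1, 8 and 2, and with no filter 445, 578, 472, 561, 75, 125, 294, 390, 329, 368, 144, 131 and 58. At a limit of 0.5 they were 367, 266, 514, 407, 101, 88, 189, 151, 320, 287, 170, 59 and 57. After the probe's median on the 6 other arrays was subtracted, 43 genes were lower at 12 h, 6 sustained lower and 37 graded higher, and the other counts stayed within 1.5 times. LINC00189 then turned from lower to 0.37 at 12 h and 0.51 at 24 h, and MIP to 0.0092 and 0.104. Centring, the mean over a gene's probes, the series matrix and the correction for base composition, the last chosen after seeing the data, kept all 13 counts within 1.5 times.

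Limma's calls at 12 h, at 24 h, for 24 h minus 12 h and for the mean of both times were 1, 1, 0 and 4 as reported. Without the miR-143, the si-GOLM1 or the miR-27b pair they were 0 in each test. With normexp and loess they were 21, 50, 22 and 134, and with no filter on dim probes 657, 602, 849 and 1020. Against the mean of the other treatments, a test chosen after seeing the data, the mean of both times gave 1, and from the 2 CXCL10 arrays alone it gave 0. The cause of these differences was not tested. In 539 of 540 recomputations a list median moved by less than the median of the software's error over the list's genes. Most list medians are themselves smaller than this error, so the limit is a loose one. The largest move was 0.53, for immune cell markers at 12 h (-0.01 to 0.52) with the mean over a gene's probes. The next was 0.245, for prostate markers at 24 h (0.366 to 0.121) with normexp and loess. Named genes stayed within their error in 516 recomputations, with 74 that moved by more and the 4 turns of direction above. No paired analysis was possible because each time has 1 array and shares no second replicate number with the other, and leaving out an array of 1 time leaves none.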
